A study of Mus musculus with 14 samples.

Results

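The change that remained in the mouse mammary gland after 5 weeks of age was measured as the mean of the 6wk and 7wk groups against the 5wk group. The 6wk and 7wk groups had 3 arrays each (A, B and C), called late here, and the 5wk group had 2 (A and B), so the comparison rests on 8 of the 14 arrays of the series. All groups were untreated female mice of the outbred CD1 strain, set apart in the labels by age alone, and the remaining 6 arrays, 3 at 4wk and 3 at 3wk, are called early. Each array carried RNA pooled from no fewer than 3 animals, extracted from whole number 4 inguinal glands whose lymph nodes had been cut out, so epithelium, fat, vessels and connective tissue were measured together. The members are all 10671 genes that passed a filter on low signal, of 12393 genes named by a probe set of the array that names 1 gene, and 1722 stood below the filter. Each value is a ratio of a gene on 1 array to the median of that gene over the 14 arrays, so it compares ages within a gene and carries no level between genes.

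In puberty the ducts of the mammary gland grow out from the nipple through the fat pad. Terminal end buds, the club-shaped tips of the ducts, divide at the front and leave behind a bilayered duct of luminal cells, which can make milk, and contractile basal cells. Ovarian oestrogen acts with growth hormone and insulin-like growth factor to drive this outgrowth, and from the first oestrous cycles progesterone adds side branches. The fat pad itself holds mainly white adipocytes in the adult, and in the young animal some adipocytes with brown or beige character.

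After 5wk 1 of the 10671 genes passed the test. This was Mbl1, which encodes mannose-binding lectin A, a secreted protein that binds sugars on microbes and starts the lectin pathway of complement. The share called was 0.00937% of the genes tested (limma with Benjamini-Hochberg adjustment at 0.05). The change up to 5wk, 5wk against the mean of 3wk and 4wk, was estimated with the same numbers of arrays and the same median standard error of 0.21 on the log2 scale, and there 256 genes were higher at 5wk (2.4%) and 185 lower (1.73%). The 441 genes called there became 106 without 5wk A and 82 without 5wk B. The median size of change, without regard to sign, was 0.18 on the log2 scale for late against 5wk and 0.23 for 5wk against early. Both comparisons use the 5wk arrays, so their values are set side by side and no overlap between them is given.

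At an unadjusted p under 0.05 there were 911 genes for late against 5wk, 8.54% of those tested, and 1936 genes (18.1%) for 5wk against early. The 6 late arrays stood entirely above both 5wk arrays for 765 genes (7.17%) and entirely below them for 361 (3.38%). The fitted change was above 1 on the log2 scale for 218 genes and below -1 for 138. Taken alone, 6wk against 5wk had 0 called genes by limma, with a lowest adjusted p of 0.0551 and 985 genes at an unadjusted p under 0.05. For 7wk against 5wk Mbl1 was again the only called gene, among 1062 at an unadjusted p under 0.05.

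**Figure D1:**
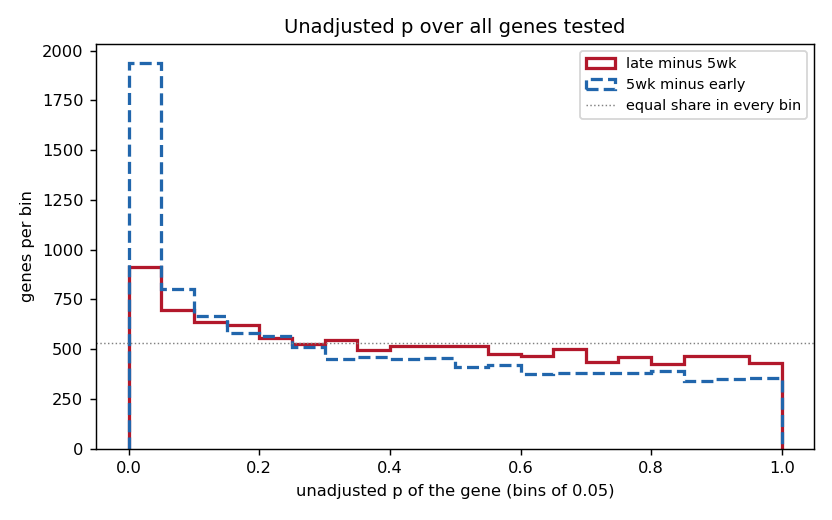
Number of genes per bin of 0.05 in unadjusted p, for late against 5wk (solid) and for 5wk against early (dashed); the dotted line marks an equal share of the 10671 genes in every bin. The first bin holds 911 genes for late against 5wk and 1936 for 5wk against early.

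A gene that was not called may still have moved, so the interval of each change was read as well. A gene is called settled here when the whole 95% interval of late minus 5wk lies between -1 and 1 on the log2 scale, that is, within a factor of 2 either way. This held for 7918 of the 10671 genes, 74.2%. The remaining genes could have moved by more than that factor without being called. A settled share therefore depends on the width of the intervals as well as on the size of the changes. With a margin of 0.58 on the log2 scale in place of 1, 40.1% of the genes were settled. Settled refers to the mean of the late ages: 27 of the 7918 settled genes were called for 7wk against 6wk, and 6 had a fitted change past 1 in size at 6wk or 7wk alone.

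Leaving out a 5wk array raised the count of calls for late against 5wk to 18 without 5wk A (17 higher late and 1 lower) and to 13 without 5wk B (13 higher and 0 lower). The lists of 18 and 13 had 0 genes in common. In both, the one 5wk array left was assumed to vary like the other groups. Both 5wk arrays had the coarser array scale, a multiplier recovered from the smallest steps in the values, at 0.0593 to 0.085 on the late arrays against 0.0937 and 0.1004 on the 5wk arrays, with no overlap, and with that scale as a covariate 0 genes were called. The 5' to 3' log2 ratio of the actin control probe sets was -0.457, -0.792 and -0.085 on the 6wk arrays and 0.159, 0.14 and 0.041 on the 7wk arrays, against -0.159 and -0.259 on the 5wk arrays. Such control ratios were taken on values already divided by the median of each probe set. They therefore compare arrays and give no absolute 5' to 3' signal. The part of these array properties in the results was not tested further.

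Mbl1 had ratios of 0.912, 0.895 and 1.24 at 6wk and 1.27, 1.56 and 1.61 at 7wk, against 0.202 and 0.319 at 5wk. All 6 late arrays lay above both 5wk arrays, and among them the 7wk arrays were the highest. The gene rose after 5wk by 2.26 on the log2 scale (SE 0.25, adjusted p = 0.0198 by limma). It had fallen before that: 5wk against early was -1.91 (SE 0.25, adjusted p = 0.00301 by limma), and the early arrays averaged 0.992 ± 0.29 (SD, n = 6) against a late average of 1.25 ± 0.304 (SD, n = 6). The level before division by the median could be recovered for Mbl1 and stood at 225 to 535 steps on the late arrays, against 46 and 68 steps on the 5wk arrays, where the filter on low signal is set at 200 steps. The adjusted p ran from 0.00759 to 0.363 over 22 alternative settings and was under 0.05 in 13 of them; it was 0.0528 without 5wk A, 0.0612 without 6wk A, 0.056 without 6wk B, 0.0811 without 7wk B, 0.0794 without 7wk C and 0.363 with the array scale as a covariate.

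The sequence around the start of Mbl1 is shown because it is the 1 gene called, from the RefSeq annotation of mouse GRCm38.p6, chr14:41151206-41151505, plus strand, 250 bases before the start and 50 after it.
Mbl1: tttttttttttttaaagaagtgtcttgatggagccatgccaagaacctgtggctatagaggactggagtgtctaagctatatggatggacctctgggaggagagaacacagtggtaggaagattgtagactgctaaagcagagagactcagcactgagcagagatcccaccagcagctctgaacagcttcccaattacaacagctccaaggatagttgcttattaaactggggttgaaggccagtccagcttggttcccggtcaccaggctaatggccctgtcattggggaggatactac

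The next genes by p were not called and are given as values only. Slc7a2, which encodes the cationic amino acid transporter CAT2, had ratios of 1.83, 1.26 and 2.06 at 6wk and 2.51, 2 and 1.92 at 7wk, against 0.826 and 0.58 at 5wk, a difference of 1.45 (adjusted p = 0.13 by limma). Its early arrays averaged 0.837 ± 0.172 (SD, n = 6), and no late array reached down to either 5wk array. Its 2 probe sets had 70 and 94 steps and 97 and 168 steps on the 5wk arrays, below the filter value. Dkkl1, a secreted protein best known from the sperm acrosome, was at 2.78, 2.05 and 7.31 at 6wk and 7.71, 4.9 and 6.22 at 7wk, against 0.715 and 1.05 at 5wk. Its recovered level passed the filter value on 3 of the 14 arrays, all of them late, with 24 and 33 steps at 5wk. Dkkl1 thus passed the filter through the group where it was high. Sel1l3, a gene of little known function, was at 1.01, 1.07 and 1.61 at 6wk and 1.86, 1.06 and 1.4 at 7wk, against 0.159 and 0.307 at 5wk, and its early average was 0.68 ± 0.299 (SD, n = 6). Sel1l3 likewise reached the filter value on 3 arrays, all of them late, with 20 and 36 steps at 5wk. The other 6 genes on the higher side differed by 0.62 to 1.06 on the log2 scale. They were Rad1, part of the clamp that signals DNA damage, Ppp1r8, a nuclear inhibitor of protein phosphatase 1, Fez1, which carries cargo along axons, Acad9, which helps assemble respiratory complex I, and Nipsnap3b and Klhl11. Their adjusted p ran from 0.13 to 0.229. Acad9, Nipsnap3b, Ppp1r8 and Klhl11 had called changes of -0.90, -1.08, -0.60 and -0.55 for 5wk against early (limma). Their late differences therefore went against the change by 5wk. Rad1 and Fez1 were at -0.48 and -0.33 for 5wk against early, not called.

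On the lower side the gene with the smallest p was Ccl7, a chemokine that draws monocytes. Ccl7 had ratios of 0.919, 0.822 and 1.02 at 6wk and 0.915, 0.685 and 0.753 at 7wk, against 1.61 and 2.27 at 5wk, a difference of -1.18 (adjusted p = 0.13 by limma). All late arrays lay below both 5wk arrays, and so did the early average of 1.15 ± 0.24 (SD, n = 6). The recovered level of Ccl7 was 153 to 298 steps on the late arrays, against 316 and 417 steps on the 5wk arrays. Pvt1, a long non-coding RNA beside Myc, was at 1.28, 0.894 and 1.39 at 6wk and 0.848, 0.72 and 0.735 at 7wk, against 1.89 and 1.79 at 5wk, and its 3 probe sets gave changes of -1.60 to -0.56.

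2 nuclear non-coding RNAs were also among the 10 on the lower side. Malat1, an abundant RNA of nuclear speckles, was at 0.266, 0.35 and 0.233 at 6wk and 0.883, 0.623 and 0.59 at 7wk, against 1.36 and 1.03 at 5wk (adjusted p = 0.232 by limma). Xist, which coats the inactive X chromosome, was at 0.62, 0.626 and 0.645 at 6wk and 1.08, 0.716 and 0.696 at 7wk, against 1.33 and 1.32 at 5wk (adjusted p = 0.184 by limma). For both the 6wk arrays were the lowest. The 5 probe sets of Malat1 gave changes after 5wk of -2.68 to -0.71, and the 3 of Xist gave -1.28 to -0.21. Xrn1, the main cytoplasmic exonuclease that degrades RNA from its 5' end, differed by -0.74 and the cyclin Ccnl1, which acts in splicing, by -0.77. The other 3 were Rasal2, a regulator of Ras, Cdk6, a kinase of the early cell cycle, and Fbp1, an enzyme of gluconeogenesis, at -0.81, -2.06 and -0.64 on the log2 scale. The pyruvate carboxylase controls compare between arrays how far labelled RNA reached towards the 5' end. They had 5' to 3' log2 ratios, of values divided by each probe set's median, of -2.784, -2.505 and -1.814 at 6wk and 0.763, 0.904 and 0.786 at 7wk, against -1.252 and -0.658 at 5wk. Their part in these values was not tested gene by gene.

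Ppara, the receptor that turns on fatty acid oxidation, was also on the lower side and had a called change before 5wk. It had ratios of 0.154, 0.218 and 0.157 at 6wk and 0.528, 0.411 and 0.357 at 7wk, against 0.634 and 1.37 at 5wk, and its early arrays averaged 7.19 ± 2.27 (SD, n = 6). Ppara fell before 5wk, with -2.90 for 5wk against early (adjusted p = 0.00171 by limma). The further difference of -1.77 after 5wk was not called (SE 0.33, adjusted p = 0.175 by limma), and it was called without 5wk A, at -2.33 with an adjusted p of 0.0473. Its recovered level was 26 to 125 steps on the late arrays, against 95 and 191 steps on the 5wk arrays, all below the filter value of 200. Ppara reached this value on all 3 arrays of 3wk (806 to 1732 steps) and all 3 of 4wk (684 to 1097 steps). It thus passed the filter only through the early group, where it was high. The size of its fall by 5wk therefore rests on 5wk values below the filter.

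**Figure D2:**
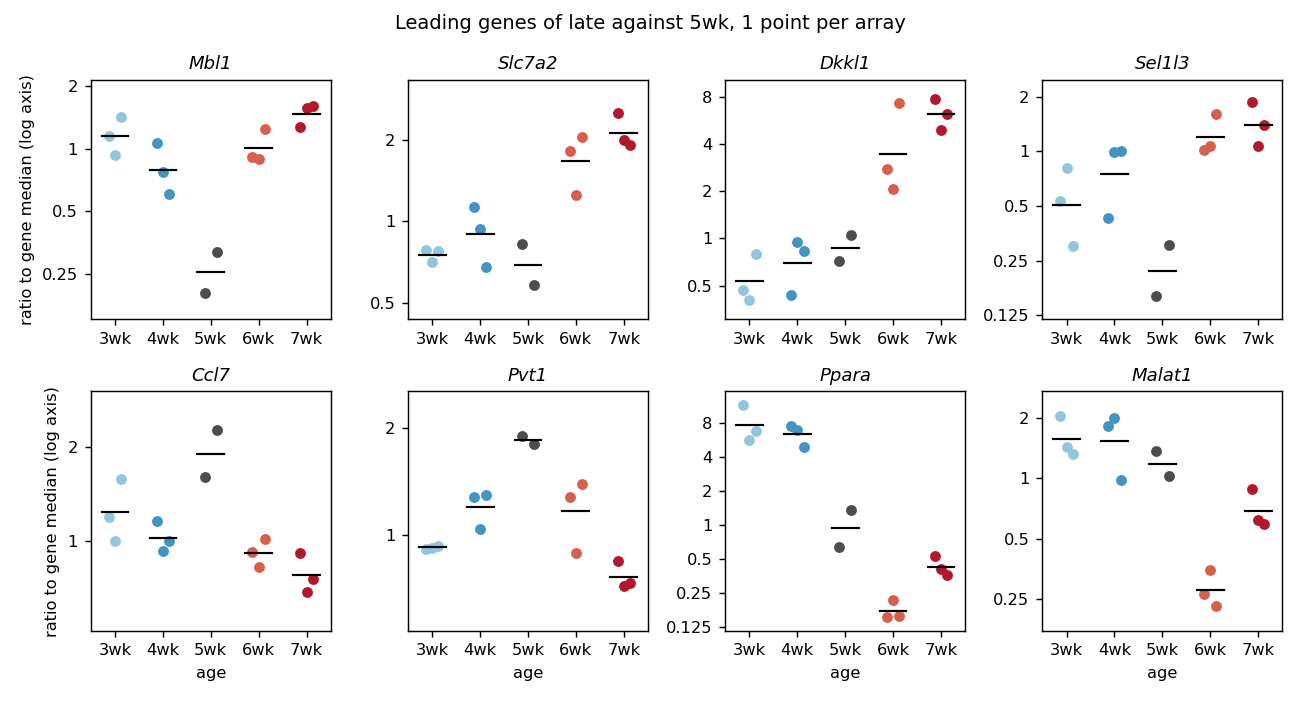
Ratios of 8 of the 20 genes named for the smallest p of late against 5wk, by age, on a log axis; each point is an array and each bar the geometric mean of an age. The geometric means of Mbl1 and Sel1l3 are lowest at 5wk, those of Ccl7 and Pvt1 are highest there, and Slc7a2 and Dkkl1 are higher on all 6 late arrays than on either 5wk array.

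When single probe sets were tested in place of gene means, 5 of 18480 were called for late against 5wk (0.0271%). The 4 higher ones name Mbl1, Slc7a2, Ppp1r8 and Pim3, a survival kinase, and the lower one names Dnmt3a, a DNA methyltransferase. Pim3 and Dnmt3a were named after their values were seen. For Slc7a2 the 2 probe sets gave 1.25 and 1.66, and for Ppp1r8 they gave 0.30 and 1.30. Of the Slc7a2 probe sets, 1 reached the filter value on late arrays only.

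The epithelial programmes had moved by 5wk. Of 34 luminal genes listed 33 were tested, and 1 is not analysed here. Of these 33, 22 (66.7%) rose by 5wk against early and 0 fell, against 2.4% and 1.73% over all genes. The list median was 1.37 on the log2 scale against 0.03 over all genes. After 5wk 0 of the 33 were called in either direction, and the median was 0.21 against 0.04 over all genes. The count of settled luminal genes, 25 of 33 (75.8%), was close to the 74.2% over all genes. Without 5wk A the count of luminal genes higher at 5wk than early was 5 and without 5wk B it was 6, and with the pyruvate carboxylase ratio as a covariate it was 1. In whole glands a larger share of epithelial cells and more RNA of these genes per cell cannot be told apart.

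Krt8, a keratin of luminal cells, had ratios of 1.28, 1.21 and 1.89 at 6wk and 1.21, 1.11 and 1.07 at 7wk, against 1.09 and 1.24 at 5wk. The late and 5wk arrays overlapped, and all lay above the early average of 0.464 ± 0.174 (SD, n = 6). The change of Krt8 after 5wk was 0.13 with a 95% interval of -0.62 to 0.88. Krt19 and Krt7, 2 further simple-epithelial keratins, differed after 5wk by 0.13 and -0.02, after 1.90 and 1.84 for 5wk against early, both called. Esrp1, an epithelial splicing factor, rose by 5wk by 1.78 and then differed by 0.30. Mal2, a protein of apical membrane transport, had the largest change of the list by 5wk, 3.28, and its interval after 5wk, -0.64 to 1.60, was too wide to call it settled.

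The luminal genes with the smallest p after 5wk were Elf5, Kit and Cldn7, and none was called. Elf5, the transcription factor that commits luminal progenitors to secretory fate, had ratios of 1.6, 1.27 and 2.45 at 6wk and 1.93, 2.57 and 1.51 at 7wk, against 1.09 and 0.802 at 5wk. Every late array was above both 5wk arrays, the early arrays averaged 0.393 ± 0.162 (SD, n = 6), and the difference after 5wk was 0.97 (SE 0.29, adjusted p = 0.378 by limma, not called). The 2 probe sets of Elf5 gave changes of 0.26 and 1.67. Kit, the receptor of luminal progenitors, was at 1.15, 1.11 and 1.84 at 6wk and 1.41, 1.91 and 1.32 at 7wk, against 1.05 and 0.881 at 5wk. Cldn7, a tight-junction claudin, was at 1.29, 1.24 and 2.1 at 6wk and 1.39, 1.43 and 1.4 at 7wk, against 1.01 and 0.994 at 5wk. Neither gene overlapped between late and 5wk arrays, as was so for 5 of the 33 luminal genes (15.2%) on the higher side, against 7.17% over all genes, and for 0 on the lower, against 3.38%.

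Of 22 milk genes tested, 10 (45.5%) rose by 5wk and 0 fell, against 2.4% and 1.73% over all genes. The list median was 1.21 on the log2 scale. After 5wk 0 were called, 5 had a fitted change above 1 and 1 below -1, and 10 (45.5%) were settled, against 74.2% over all genes. Their median standard error was 0.34, against 0.21 over all genes. All late arrays were above both 5wk arrays for 2 of the 22 (9.09%), against 7.17% over all genes. They were below both for 2 (9.09%), against 3.38%. Without 5wk A or 5wk B the count of milk genes higher at 5wk than early was 4 or 5, and with the pyruvate carboxylase ratio as a covariate it was 1.

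Csn1s1, alpha-S1-casein, had ratios of 1.92, 3.29 and 5.94 at 6wk and 7.68, 3.9 and 4.31 at 7wk, against 0.944 and 1.06 at 5wk. All late arrays were above both 5wk arrays, and the difference was 2.04 (SE 0.58, adjusted p = 0.343 by limma, not called), after a rise of 3.35 by 5wk (adjusted p = 0.0111 by limma). Csn2, beta-casein, had ratios of 0.743, 2.27 and 6.1 at 6wk and 14.6, 12.9 and 11.8 at 7wk, against 1.54 and 1.26 at 5wk. The 6wk arrays spanned both 5wk arrays and the 7wk arrays all lay above them, so the change was 0.65 at 6wk and 3.23 at 7wk, neither called. Csn1s2a, an alpha-S2-like casein, was at 0.942, 2.31 and 1.65 at 6wk and 6.36, 7.46 and 3.48 at 7wk, against 1.45 and 0.941 at 5wk. Its probe sets gave changes of -0.53 to 2.35, so they did not share a direction. Btn1a1, butyrophilin of the milk fat globule, differed by 0.65, and Wap, whey acidic protein, by -0.01 with an interval of -0.62 to 0.60. Ltf, lactoferrin, rose by 2.31 by 5wk and was settled after it at -0.19. Glycam1, a mucin of milk and of lymph node vessels, ranged from 0.0964 to 21.3 over the 14 arrays with a standard error of 1.82, too wide for any call.

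Prolactin acts on casein genes through STAT5, whose best known target letters are TTCNNNGAA, which read the same on both strands. The 3 casein promoters are shown because these genes had the largest fitted changes among the milk genes that also rose by 5wk. Sequences are from RefSeq, GRCm38.p6, 250 bases before to 50 after the start, with each match in capitals: Csn2 at chr5:87699376-87699675, minus strand, Csn1s1 at chr5:87665958-87666257, plus strand, and Csn1s2a at chr5:87774200-87774499, plus strand.
Csn2: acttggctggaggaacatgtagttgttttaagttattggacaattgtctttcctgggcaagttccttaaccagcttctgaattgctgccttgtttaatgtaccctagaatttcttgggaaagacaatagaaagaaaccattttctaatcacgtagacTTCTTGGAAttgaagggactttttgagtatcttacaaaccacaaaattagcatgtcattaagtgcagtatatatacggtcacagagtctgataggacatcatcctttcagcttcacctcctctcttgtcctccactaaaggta
Csn1s1: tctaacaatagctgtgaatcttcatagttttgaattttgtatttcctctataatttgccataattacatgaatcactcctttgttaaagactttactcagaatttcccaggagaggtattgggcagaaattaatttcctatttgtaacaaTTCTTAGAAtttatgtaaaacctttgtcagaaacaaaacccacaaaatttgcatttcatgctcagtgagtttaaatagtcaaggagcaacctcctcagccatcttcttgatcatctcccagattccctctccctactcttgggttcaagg
Csn1s2a: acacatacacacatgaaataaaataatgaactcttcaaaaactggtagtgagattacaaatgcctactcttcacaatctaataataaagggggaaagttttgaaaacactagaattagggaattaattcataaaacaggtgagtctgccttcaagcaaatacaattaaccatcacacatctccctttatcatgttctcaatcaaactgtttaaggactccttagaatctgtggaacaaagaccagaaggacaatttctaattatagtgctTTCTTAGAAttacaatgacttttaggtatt

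Each of the 3 holds 1 match, which begins at -93 in Csn2, at -100 in Csn1s1 and at 21 in Csn1s2a, counted with the first base of the transcript as 1. The letters occur in 2726 of the 32851 promoter windows of the same length (8.3%). A match is a description of letters and not a binding site, and the windows of Elf5 and Mbl1 hold 0 matches.

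Some basal genes had also risen by 5wk. Of 23 basal and myoepithelial genes tested, 5 (21.7%) rose by 5wk and 0 fell, against 2.4% and 1.73% over all genes. After 5wk 0 were called, with a median of 0.08 and 16 settled (69.6%). Krt14, the basal keratin, had ratios of 1.15, 1.45 and 1.35 at 6wk and 1.27, 0.952 and 1.17 at 7wk, against 1.29 and 1.12 at 5wk. These overlap, and the change of 0.02 had an interval of -0.44 to 0.47, after a rise of 1.22 by 5wk (adjusted p = 0.0107 by limma). Cnn1, calponin of the contractile apparatus, rose by 2.36 by 5wk and was settled after it at -0.30. Jag2, a Notch ligand, was at 0.827, 0.792 and 1.2 at 6wk and 1.05, 1.16 and 0.958 at 7wk, against 0.717 and 0.548 at 5wk, without overlap, and was not called. Its 2 probe sets gave changes of 0.09 and 1.21. All late arrays were higher for 1 of the 23 basal genes (4.35%), against 7.17% over all genes. They were lower for 1 of the 23 (4.35%), against 3.38%. This was Itga6, at -0.44 and not called, with probe sets at -0.80 and -0.08. With the pyruvate carboxylase ratio as a covariate, 0 basal genes were called higher at 5wk than early. Without 5wk A, and likewise without 5wk B, 1 basal gene was called higher at 5wk than early.

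Among hormone-response genes, 1 member had a fitted change above 1 after 5wk. Of 20 tested, 5 rose by 5wk, a share of 25% against 2.4% over all genes, 0 were called after it, 11 were settled (55%), and 4 (20%) had all late arrays above both 5wk arrays, against 7.17% over all genes. Without 5wk A, and likewise without 5wk B, 1 hormone-response gene was called higher at 5wk than early, and the count was also 1 with the pyruvate carboxylase or the actin ratio as a covariate. Tnfsf11, which encodes RANKL, the paracrine signal by which progesterone makes neighbouring cells divide, had ratios of 1.58, 2.57 and 0.913 at 6wk and 1.14, 3.75 and 2.88 at 7wk, against 0.109 and 0.719 at 5wk. The 5wk arrays lay far apart and the late arrays did not reach down to them, a difference of 2.75 (SE 0.81, adjusted p = 0.376 by limma, not called). Socs2, a growth hormone target that damps its receptor, was at 1.45, 1.13 and 1.84 at 6wk and 1.09, 1.31 and 1.18 at 7wk, against 0.681 and 0.843 at 5wk (adjusted p = 0.292 by limma). The receptors themselves were scattered: Esr1, oestrogen receptor alpha, had a change of -0.32 with an interval of -1.81 to 1.16, and Pgr, the progesterone receptor, one of 0.27 with an interval of -0.82 to 1.36. Stc2, a stanniocalcin, and Gata3, a luminal transcription factor, rose by 5wk by 1.77 and 2.38.

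Genes of branching signals had a settled share near that of all genes, and fibrillar matrix genes a higher one. Of 52 genes of branching signals tested, 7 (13.5%) rose by 5wk, against 2.4% over all genes, 0 were called after it and 37 were settled (71.2%). Without 5wk A, 1 was called higher and 1 lower at 5wk than early, without 5wk B 0 were called, and with the pyruvate carboxylase ratio as a covariate 1 was called higher. Wnt5a, a non-canonical Wnt ligand that restrains duct growth, was at 1.11, 0.889 and 1.13 at 6wk and 1.02, 1.04 and 1.2 at 7wk, against 1.5 and 1.59 at 5wk, all late arrays lower. Tgfbr1, a receptor of the growth-restraining TGF-beta ligands, and its ligand gene Tgfb2 were higher on every late array than on either 5wk array, by 0.55 and 0.60, not called. Among 23 matrix proteases and their inhibitors, Mmp3 and Mmp2, which cut matrix at growing ducts, differed by 0.81 and 0.51, also without overlap and not called. All late arrays were higher for 2 of these 23 genes (8.7%) and for 4 of the 52 branching genes (7.69%), near the 7.17% over all genes. They were lower for 2 of the 52 (3.85%) and 0 of the 23, against 3.38% over all genes. Of 34 fibrillar matrix genes 31 were settled (91.2%), and of 18 basement membrane genes 15 (83.3%). The median standard errors of the branching, fibrillar matrix and basement membrane lists were 0.25, 0.18 and 0.19, against 0.21 over all genes. Postn, a matrix protein of growing stroma, was at 1.11, 1.04 and 1.06 at 6wk and 0.734, 0.694 and 0.882 at 7wk, against 1.21 and 1.21 at 5wk, and its change of -0.41 was settled.

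**Figure D3:**
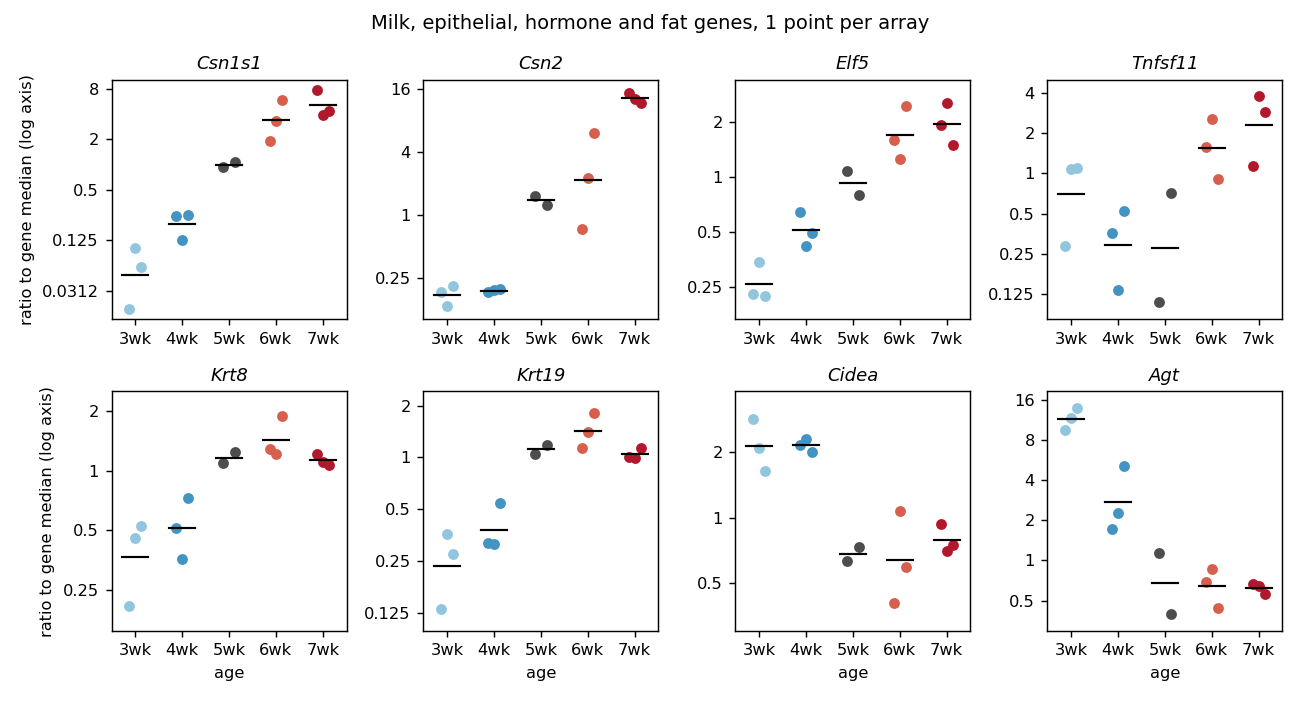
Ratios of milk (Csn1s1, Csn2), luminal (Elf5, Krt8, Krt19), hormone-response (Tnfsf11) and fat-pad (Cidea, Agt) genes by age, on a log axis; each point is an array and each bar the geometric mean of an age. Krt8 and Krt19 overlap between 5wk and the late ages, while all late arrays of Csn1s1, Elf5 and Tnfsf11 lie above both 5wk arrays.

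All 22 white fat genes tested were settled, against 74.2% over all genes, with a median of -0.06 after 5wk, a median standard error of 0.15, 0 called and 3 (13.6%) with all late arrays below both 5wk arrays, against 3.38% over all genes. By 5wk 2 of the 22 had fallen against early, with a list median of -0.29, and without 5wk A, and likewise without 5wk B, 0 were called. The 2 called lower by 5wk were 9.09% of the list, against 1.73% over all genes. Adipoq, adiponectin of white fat, had ratios of 0.97, 0.958 and 0.973 at 6wk and 0.811, 0.907 and 0.824 at 7wk, against 1.03 and 1.02 at 5wk. All late arrays were lower, with a change of -0.18, an interval of -0.41 to 0.04, and the gene was not called. Fabp4, the adipocyte fatty acid carrier, and Car3, a carbonic anhydrase abundant in fat, differed by -0.33 and -0.35. Of 18 fatty acid synthesis genes 17 (94.4%) and of 18 cholesterol synthesis genes 16 (88.9%) were settled in the mean of the late ages. Of the 17 fatty acid genes, 3 were called higher at 7wk than at 6wk, and 1 of them, Acaca, differed from 5wk by -1.34 at 6wk and 1.32 at 7wk, neither called, with opposite signs that cancel in the mean. The cholesterol list had a median of 0.43 for 7wk against 6wk, with 0 called. Of the 22 white fat genes, 1 was called higher at 7wk than at 6wk.

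Brown fat genes fell before 5wk, 7 of 15 tested (46.7%) with a median of -1.10, against 1.73% lower over all genes. After 5wk 0 were called, with a median of -0.25 and 8 settled (53.3%). Cidea, a lipid droplet protein of brown and beige fat, had ratios of 0.405, 1.07 and 0.596 at 6wk and 0.93, 0.703 and 0.748 at 7wk, against 0.633 and 0.73 at 5wk. The ages overlapped below the early average of 2.16 ± 0.392 (SD, n = 6), and the change of 0.06 was settled. Fabp3, the fatty acid carrier of muscle and brown fat, fell by 3.10 on the log2 scale by 5wk and then differed by -0.15, settled. Ucp1, the uncoupling protein that makes heat, was at 0.435, 0.8 and 0.629 at 6wk and 0.991, 0.371 and 0.167 at 7wk, against 0.587 and 1.01 at 5wk, with an interval of -1.92 to 0.60 after 5wk. Agt, angiotensinogen, was at 0.694, 0.859 and 0.439 at 6wk and 0.66, 0.643 and 0.558 at 7wk, against 1.14 and 0.395 at 5wk, and fell by 3.07 by 5wk, against early. The brown fat list had a median standard error of 0.31, against 0.21 over all genes. With the pyruvate carboxylase ratio as a covariate, 1 brown fat gene was called lower at 5wk than early. Without 5wk A or 5wk B, 4 or 3 brown fat genes were called lower at 5wk than early.

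Genes of energy metabolism had likewise fallen in part by 5wk. Of 48 respiratory chain and citric acid cycle genes, 12 (25%) fell by 5wk with a median of -0.44, against 1.73% lower over all genes. After 5wk 0 were called, the median was -0.11 and 46 were settled (95.8%). Uqcrc2, a core subunit of complex III, was at 0.903, 0.982 and 0.805 at 6wk and 0.835, 0.839 and 0.73 at 7wk, against 1 and 0.979 at 5wk, a difference of -0.23. Of 27 beta-oxidation genes, 10 (37%) fell and 1 (3.7%) rose by 5wk, against 1.73% and 2.4% over all genes, and 25 were settled (92.6%). The one that rose was Acot1, a cytosolic thioesterase, at 2.42, 1.67 and 2.49 at 6wk and 1.37, 1.68 and 2.09 at 7wk, against 0.869 and 1.13 at 5wk, with all late arrays above both 5wk arrays and an early average of 0.259 ± 0.0541 (SD, n = 6). Ehhadh, the bifunctional enzyme of peroxisomes, stood at 0.55 after 5wk and -1.26 before it. All late arrays were higher for 2 of the 27 beta-oxidation genes (7.41%), against 7.17% over all genes. The respiratory and beta-oxidation lists had median standard errors of 0.14 and 0.15, against 0.21 over all genes. With the pyruvate carboxylase ratio as a covariate, 0 respiratory and 2 beta-oxidation genes were called lower at 5wk than early. Without 5wk A, and likewise without 5wk B, 0 respiratory genes were called lower at 5wk than early. The count of beta-oxidation genes called lower was 2 without 5wk A and 3 without 5wk B.

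**Figure D4:**
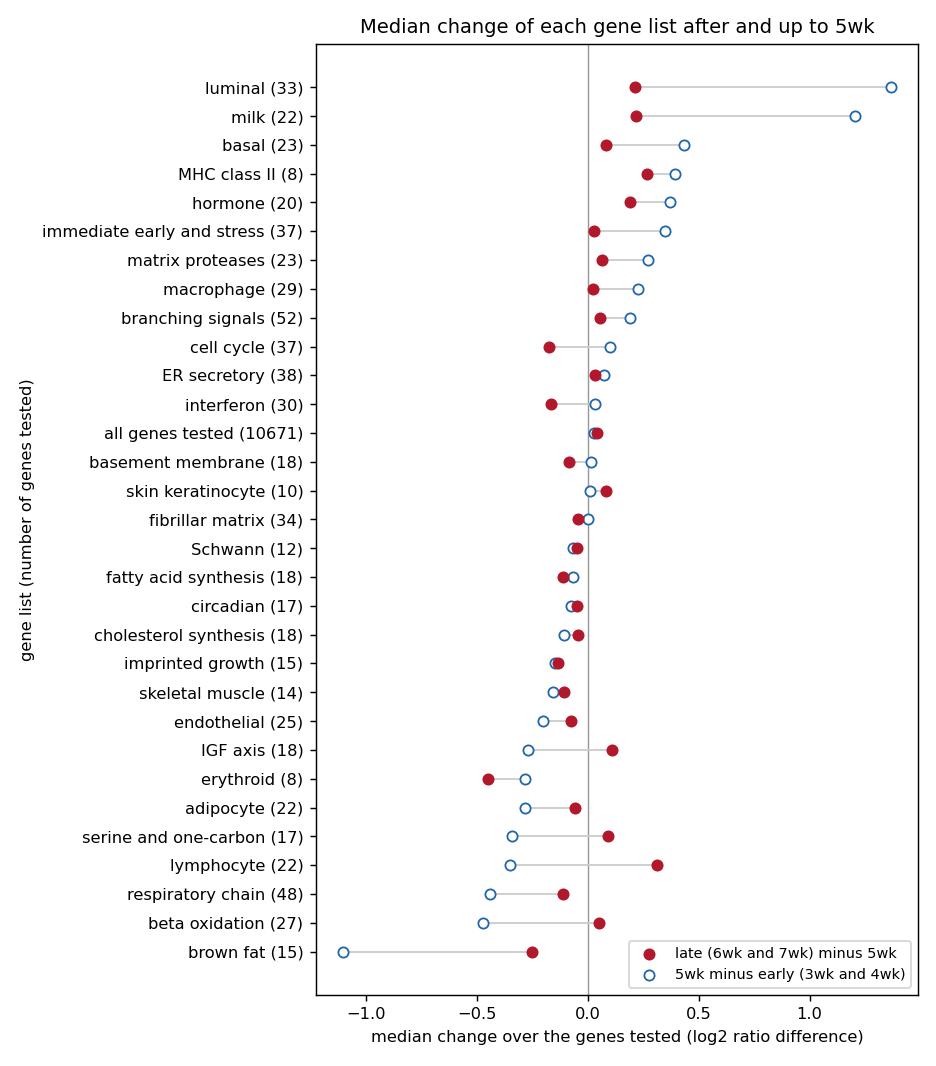
Median fitted change of each gene list for late minus 5wk (filled) and 5wk minus early (open), on the log2 scale, with the number of genes tested; both use the 5wk arrays. The luminal and milk lists lie at 0.21 and 0.22 for late minus 5wk, against 1.37 and 1.21 for 5wk minus early, and the brown fat list at -0.25 against -1.10.

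The largest changes that had settled were named by the size of the change by 5wk. Cxcl15, an epithelial chemokine first described in mouse lung, had ratios of 1.35, 1.14 and 1.51 at 6wk and 0.888, 1.42 and 1.11 at 7wk, against 1.34 and 1.43 at 5wk. The late arrays overlapped the 5wk arrays, far above the early average of 0.174 ± 0.102 (SD, n = 6), and the change after 5wk was -0.19 with an interval of -0.84 to 0.46. Trps1, a GATA-type repressor of the mammary epithelium, Wwc1, a Hippo pathway scaffold, and Atp6v1b1, a proton pump subunit, rose by 5wk by 1.84, 1.94 and 1.96 and then differed by -0.27, 0.06 and 0.07. Pla1a, a phospholipase, rose by 1.90 and, although its interval of 0.22 to 0.90 was within a factor of 2, all its late arrays, at 1.42, 1.12 and 1.69 and 1.56, 1.58 and 1.53, lay above the 5wk arrays at 1.03 and 0.968. On the falling side Anxa8, a membrane-binding annexin, fell by 2.38 by 5wk and then differed by 0.06. Wfdc21, a small secreted inhibitor, and Dbt, of the branched-chain amino acid dehydrogenase, changed by -1.62 and -1.31 and then differed by -0.40 and 0.51. Mycl, a Myc family factor, rose by 1.32 and was settled at 0.16.

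Genes of dividing cells had medians of opposite sign at the late ages, with single arrays apart. Of 37 cell cycle genes tested, 0 were called in any of these comparisons, and their median was 0.17 for 6wk against 5wk and -0.53 for 7wk against 5wk. The mean log2 ratio of the list was 0.002, 0.007 and 0.419 on the 6wk arrays A, B and C and -0.724, -0.641 and -0.009 on the 7wk arrays A, B and C, against -0.101 and 0.128 on the 5wk arrays. Only 6wk C lay above both 5wk arrays, and only 7wk A and B lay below both. Mki67, the proliferation antigen, had ratios of 0.98, 1.02 and 1.28 at 6wk and 0.231, 0.24 and 0.865 at 7wk, against 1.06 and 1.09 at 5wk. The 6wk arrays overlapped the 5wk arrays and all 7wk arrays were lower, a difference of -1.58 for 7wk against 6wk that was not called (SE 0.45, adjusted p = 0.174 by limma). Top2a, a topoisomerase of dividing cells, was at 1.02, 1.25 and 1.3 at 6wk and 0.614, 0.489 and 0.849 at 7wk, against 1.05 and 1.25 at 5wk, and Nusap1, a spindle protein, was at 1.12, 0.98 and 1.23 at 6wk and 0.752, 0.729 and 1.09 at 7wk, against 1.25 and 1.37 at 5wk.

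Markers of other cells that a gland can hold gave 0 calls after 5wk in each list. Lymphocyte genes had the lowest settled share of the 30 lists, 5 of 22 (22.7%), with a median standard error of 0.36 and with medians of -0.02 for 6wk and 0.88 for 7wk against 5wk. Cd8a, a receptor of cytotoxic T cells, was at 0.788, 0.504 and 0.957 at 6wk and 1.05, 1.05 and 1.23 at 7wk, against 0.673 and 0.197 at 5wk, and Cd3e, part of the T-cell receptor, at 0.491, 0.332 and 0.82 at 6wk and 1.18, 3.35 and 2.55 at 7wk, against 0.303 and 0.37 at 5wk. The late and 5wk arrays overlapped for both. Settled genes made up 26 of 29 for macrophages, 4 of 8 for MHC class II, 21 of 25 for endothelium, 6 of 14 for skeletal muscle, 4 of 10 for skin keratinocytes, 9 of 12 for Schwann cells and 4 of 8 for red cells. Retnla, a product of alternatively activated macrophages, was at 0.988, 0.978 and 1.22 at 6wk and 0.929, 0.795 and 1.04 at 7wk, against 0.616 and 0.47 at 5wk, with all late arrays higher, and by 5wk it fell by 1.09, against early. All late arrays were higher for 2 of the 29 macrophage genes (6.9%), against 7.17% over all genes.

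Since the mean of 6wk and 7wk can hide opposite moves, 7wk was tested against 6wk. There 38 genes were called (0.356%), 31 higher and 7 lower at 7wk, and 1360 had an unadjusted p under 0.05. Leaving out 1 array gave 2 calls without 7wk A, 7 to 16 without each of 6 other arrays and 44 without 6wk C. Acaca, acetyl-CoA carboxylase, which makes the first committed step of fatty acid synthesis, had ratios of 1.42, 1.53 and 1.55 at 7wk, against 0.209, 0.265 and 0.243 at 6wk. It rose by 2.66 (SE 0.26, adjusted p = 0.00205 by limma), the 5wk arrays lay between at 0.425 and 0.855, and the mean of the late ages differed from 5wk by -0.01. In all, 3 of 18 fatty acid synthesis genes were called higher at 7wk than at 6wk and 0 lower.

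Igfbp1, a binding protein of insulin-like growth factors made mainly by liver, rose to 1.8, 1.21 and 1.59 at 7wk, against 0.254, 0.118 and 0.27 at 6wk. Cdk6 rose to 1.1, 0.963 and 1.03 at 7wk, against 0.385, 0.208 and 0.11 at 6wk, with both 5wk arrays above all of them. Cd28, a co-stimulatory receptor of T cells, rose to 2.83, 2.6 and 3.93 at 7wk, against 0.833, 0.525 and 0.928 at 6wk. The probe sets of these 3 genes reached the filter value of 200 steps on at most 3 of the 14 arrays. Each Cd28 probe set reached it on 2 arrays, all at 7wk, so Cd28 passed the filter through the group where it was high. The 4 largest fitted falls, given as fitted values since most arrays of these genes were below the filter value, were Nepn, a small leucine-rich proteoglycan, at -2.33, Slc25a13, the mitochondrial aspartate-glutamate carrier, at -2.26, Tpd52l1, a coiled-coil protein of vesicle traffic, at -1.95, and Wfdc1, a secreted protease inhibitor, at -1.79 on the log2 scale. Tpd52l1 was at 1.28, 0.824 and 1.13 at 7wk, against 4.22, 4.93 and 3.34 at 6wk, and 3.96 and 4.28 at 5wk, so the 6wk arrays lay beside the 5wk arrays and the 7wk arrays below. Slc25a13 was at 0.67, 1.47 and 0.944 at 7wk, against 4.96, 4.13 and 5.04 at 6wk, and 0.738 and 0.791 at 5wk, so only the 6wk arrays stood apart. Its recovered level reached the filter value on all 3 arrays of 6wk (370 to 611 steps) and on no other, with 86 to 136 steps at 7wk and 60 on both 5wk arrays, so it passed the filter through the group where it was high. Nepn reached 200 steps on 2 of the 14 arrays, with 34 to 63 steps at 7wk against 155 to 244 at 6wk. Tpd52l1 reached it on 5 arrays, all at 5wk and 6wk, and Wfdc1 on 6, all at 3wk and 6wk, and neither on any 7wk array. The size of these falls therefore rests on 7wk values below the filter. The 5' to 3' ratios of the pyruvate carboxylase and actin controls, given above, did not overlap between 7wk and 6wk arrays, and with either as a covariate 0 genes were called.

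**Figure D5:**
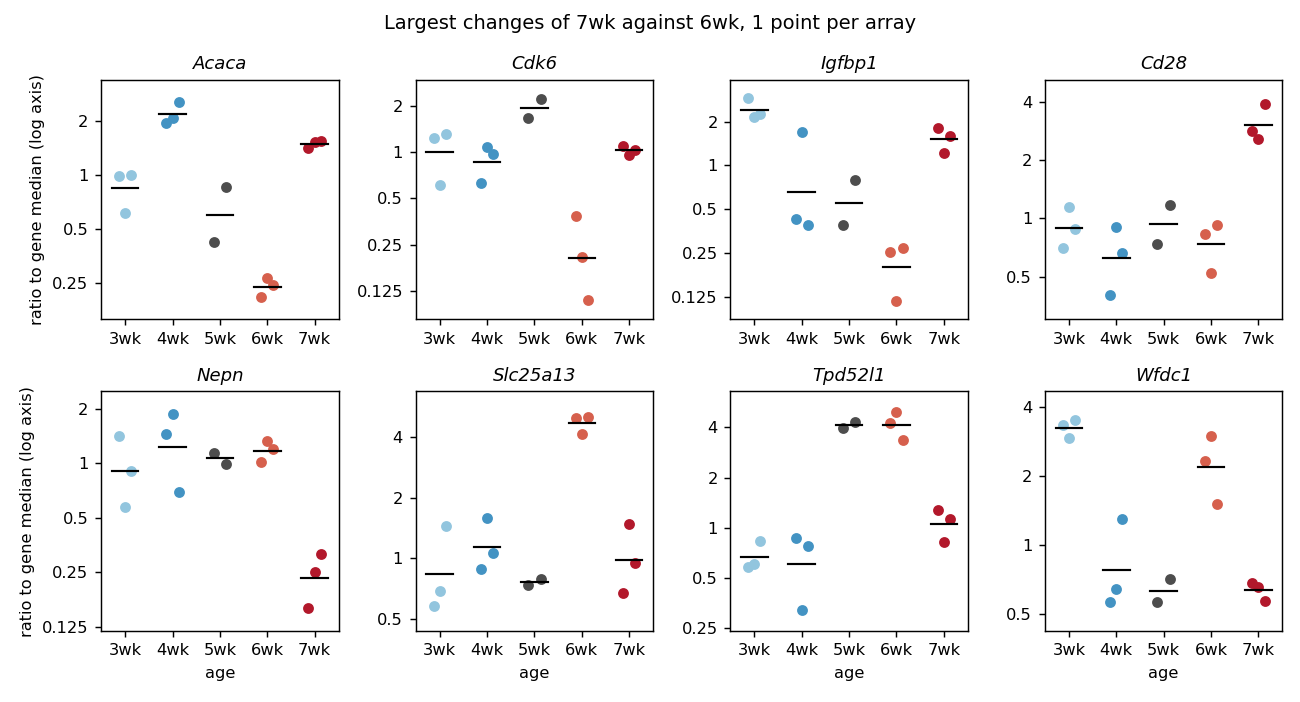
Ratios of the 4 largest called rises (top) and 4 largest called falls (bottom) of 7wk against 6wk, by age, on a log axis; each point is an array and each bar the geometric mean of an age. For each gene the 7wk and 6wk arrays do not overlap.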

How the data were processed

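The deposited table holds ratios. For 98.48% of its 22690 probe sets the 14 values have a median of 1 (within 0.001), which means that division by this median preceded deposit, with a common minimum divisor for 337 of them. These ratios are the authors' deposited values. Signal software and scaling: not given in the sources used here. An array scale (step) is the smallest unit of each array in those 337 rows. It let the level before division be recovered for 8048 probe sets (35.47%). 64 control probe sets and 4146 below 200 steps on at least 13 of the 14 arrays were left out. The platform annotation named 1 gene for 20380 probe sets, several for 691 and none for 1555, and 20364 matched RefSeq. A gene is the mean log2 ratio of its probe sets, with no offset.

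All 14 arrays entered 1 linear model of the 5 ages (limma 3.58.1 under R 4.3.3, two-sided, Benjamini-Hochberg over 10671 genes, threshold 0.05), which was tested on simulated data. Plots used matplotlib 3.10.9, and tables used pandas 2.3.3 with numpy 2.4.6 under Python 3.11.15. Arrays are pools, and p-values reflect only how pools vary. No 2 arrays held identical values. The 30 gene lists and the rules were chosen with earlier results of these data known, and of their 803 entries 710 were tested, 35 stood below the filter and 58 are not analysed here. Genes were named by rule: the smallest p of late against 5wk up to 10 per direction, the 4 largest called changes of the other late comparisons, list members with the 4 smallest p after 5wk or the 2 largest changes by 5wk, the largest settled changes, and 14 fixed genes. Alternatives covered the filter, offset, normalization, probe sets, array weights, covariates, pairing and single arrays.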

Additional observations from a re-analysis of the deposited data

Results flagged for a closer look

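For 10 of the named genes the 2 late ages differed by a test of 7wk against 6wk itself (limma, adjusted p under 0.05), so their mean against 5wk does not describe either age. The log2 differences were 2.91 for Igfbp1, 2.66 for Acaca, 2.32 for Cdk6, 2.05 for Cd28, 1.93 for Kcnk3, a potassium channel of brown fat, and 0.92 for Xrn1, all higher at 7wk. They were -2.33 for Nepn, -2.26 for Slc25a13, -1.95 for Tpd52l1 and -1.79 for Wfdc1, all lower at 7wk. Cd28 and Slc25a13 passed the filter on low signal only through the group where they were high, 7wk for Cd28 and 6wk for Slc25a13. With the 5' to 3' ratio of pyruvate carboxylase or of actin as a covariate, 0 genes were called for 7wk against 6wk. Groups of 2 and 3 arrays were not tested for outlying arrays.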

How the results depend on the processing

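No called change reversed its direction under any alternative run. Counts of genes called are given for late against 5wk, 6wk against 5wk, 7wk against 5wk, 7wk against 6wk and 5wk against early, which were 1, 0, 1, 38 and 441. With only the 8 arrays of 5wk, 6wk and 7wk in the fit the first 4 comparisons had 0, 0, 0 and 0. Single probe sets gave 5, 52, 9, 177 and 563. With the actin 5' to 3' ratio as a covariate the counts were 0, 0, 0, 0 and 174, and with the hybridisation controls 2 for 7wk against 6wk. Without the filter on low levels 7wk against 6wk had 6 calls, and with a stricter filter it had 78 and 6wk against 5wk had 11. The median over probe sets gave 9 for 6wk against 5wk and 11 for 7wk against 6wk, and array weights gave 10 and 75. The letters of the arrays did not pair the samples (7 pairs, correlations from -0.05 to 0.05), and with a replicate block the counts were 0, 0, 0, 23 and 391. Leaving out each array of 5wk, 6wk and 7wk in turn gave 0 to 18 calls for late against 5wk, 0 to 12 for 6wk against 5wk, 0 to 18 for 7wk against 5wk and 2 to 44 for 7wk against 6wk, where the lowest was without 7wk A, and 82 to 449 for 5wk against early, where the lowest was without 5wk B. Where 1 array of 5wk was left it was assumed to vary like the other groups. 2 covariates were chosen after seeing the data: the array scale gave 0, 0, 0, 7 and 390, and the pyruvate carboxylase ratio gave 1, 0, 0, 0 and 24. Settled genes were 74.2% and ran from 57.7% to 86.0% over the same alternatives, and were 40.1% with a margin of 0.58. The causes of these differences were not tested. Signal near background limits Dkkl1, Sel1l3, Ppara, Cdk6, Igfbp1, Cd28, Nepn, Slc25a13, Tpd52l1 and Wfdc1, and both 5wk values of Mbl1 and Slc7a2. It also limits 1 probe set of Pvt1, and some late values of Ccl7 lay below the filter value.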

Other observations

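Stress, clock and growth-factor genes gave 0 calls after 5wk as well. Of 37 immediate early and stress genes 26 were settled (70.3%), and 3 had risen and 2 fallen by 5wk, which became 2 and 0 without 5wk A and 1 and 0 without 5wk B. Klf2, a shear-responsive factor of vessels and T cells, had ratios of 0.903, 0.927 and 0.849 at 6wk and 1.04, 1.25 and 1.25 at 7wk, against 0.668 and 0.749 at 5wk, all late arrays higher, and Hspa1b, an inducible heat shock protein, had 1.53, 1.39 and 1.8 and 1.85, 1.49 and 1.31, against 1.17 and 0.892 at 5wk. Dbp, a clock-driven transcription factor whose level swings over the day, had 0.489, 0.986 and 0.708 at 6wk and 0.664, 0.418 and 0.475 at 7wk, against 1.09 and 1.18 at 5wk, all late arrays lower, and 9 of 17 clock genes were settled (52.9%). The hour of dissection was not used here. All late arrays were higher for 2 of the 37 immediate early and stress genes (5.41%), against 7.17% over all genes. They were lower for 2 of these 37 (5.41%) and for 1 of the 17 clock genes (5.88%), against 3.38% over all genes. The 3 that had risen and 2 that had fallen by 5wk were 8.11% and 5.41% of the 37, against 2.4% and 1.73% over all genes. With the pyruvate carboxylase ratio as a covariate, 0 stress genes were called at 5wk against early.

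Among 15 imprinted growth genes, 4 (26.7%) were lower late at an unadjusted p under 0.05, against 2.42% over all genes, and none was called: Cdkn1c by -0.60, Igf2r by -0.40, Dlk1 by -0.73 and Meg3 by -0.49. At the same p, 6 of 52 genes of branching signals (11.5%), 4 of 22 milk genes (18.2%) and 4 of 37 immediate early and stress genes (10.8%) were higher late, against 6.12% over all genes. Other lists had shares of that size, among them MHC class II (25% higher and 12.5% lower) and hormone response (15% and 0%). Red cell genes had 0% higher and 25% lower, skin keratinocyte genes 10% and 20%, and interferon genes 0% and 10%. Of 18 insulin-like growth factor genes 12 were settled (66.7%), of 30 interferon genes 19 (63.3%), of 17 serine and one-carbon genes 13 (76.5%) and of 38 genes of the secretory pathway 38 (100%). The interferon genes Gbp6 and Iigp1 stood at 1.83 and 1.01 and at 2.27 and 0.969 on the 5wk arrays A and B, so 5wk A was the higher for both. Of the red cell genes, Alas2, which starts haem synthesis, had 0.757, 0.716 and 0.725 at 6wk and 0.566, 0.381 and 0.244 at 7wk, against 1.08 and 0.919 at 5wk. The MHC class II gene H2-Ea had 0.668, 0.941 and 3.24 at 6wk and 0.9, 0.943 and 0.862 at 7wk, against 8.7 and 2.05 at 5wk.

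The genes called when a 5wk array was left out were chosen after the data were seen. Without 5wk A they included Jag1, a Notch ligand, at 2.10, and Batf3, a factor of dendritic cells, at 2.61. Without 5wk B they included Ovol2, an epithelial repressor, at 2.43, and Irf4, a lymphocyte factor, at 2.24 on the log2 scale. None of the 18 or the 13 was called in both.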
